A study of Mus musculus with 12 samples.

Results

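The let-7 family was followed here in the liver of mice fed a diet labelled HFCF or normal chow. Its 7 studied loci are the rows for Mirlet7a-1, Mirlet7a-2, Mirlet7c-1, Mirlet7d, Mirlet7g, Mirlet7i and Mir98, taken by name out of 3717 genes in the table, of which 259 are miRNA loci. Mirlet7a-2 stands in the table as CT009696.1 and was matched by its Ensembl identifier, ENSMUSG00000092770. The table holds 5 more rows at let-7 hairpins: Mirlet7b, Mirlet7c-2, Mirlet7f-2, and AC147162.1 and AC165361.1, which lie on the opposite strand of Mirlet7f-1 and Mirlet7e. They are given beside the 7 where they help. The series, on experimental nonalcoholic steatohepatitis, sequenced small RNA from whole liver of wild-type male C57BL/6 mice. The groups were HFCF for 1 month and chow for 1 month, both at 3 months of age, and HFCF for 3 months and chow for 3 months, both at 6 months of age. Each of the 4 groups held 3 libraries, which the design text calls biological replicates. The labels do not spell out HFCF. Time on the diet, age, and by these figures the age at which the diet began, changed together, so they cannot be told apart.

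The let-7 miRNAs were first found in the worm Caenorhabditis elegans as timers of development, and in mammals they are abundant in differentiated adult tissue, the liver among them. Drosha releases the precursor hairpin and Dicer then cuts it, and LIN28 proteins block that maturation. The mature strand guides Argonaute to messenger RNAs that pair with its seed. Known targets include growth and proliferation genes such as Hmga2, Igf2bp1, the Ras genes and the insulin receptor gene Insr. The members share their seed, so they are thought to have largely overlapping targets.

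The mature sequences of the loci on which the results turn are printed first, because the shared letters decide which loci a read can be told apart from. They are from RefSeq on build GRCm38.p6, 5′ to 3′, and the hairpins at all 12 let-7 rows matched an entry there. Capitals mark the seed, bases 2 to 8. The 5p strands of the 7 loci were these.
let-7a-5p (Mirlet7a-1 and Mirlet7a-2): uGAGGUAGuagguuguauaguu
let-7c-5p (Mirlet7c-1 and Mirlet7c-2): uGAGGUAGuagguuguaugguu
let-7d-5p: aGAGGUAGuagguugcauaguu
let-7g-5p: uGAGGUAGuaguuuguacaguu
let-7i-5p: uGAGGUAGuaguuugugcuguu
miR-98-5p: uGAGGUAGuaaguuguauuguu
The same seed, GAGGUAG, was held by 11 of 1679 mouse mature names in the RefSeq table. Relative to let-7a-5p, with positions counted from 1 at the 5′ end, let-7c-5p differs by A19G alone. let-7g-5p differs by G12U and U18C, let-7d-5p by U1A and U16C, and miR-98-5p by G11A and A19U. let-7i-5p, the most distant of the 7 loci, carries G12U, A17G, U18C and A19U. let-7a-5p and let-7c-5p each lie in 2 hairpins, as does let-7f-5p. A read of one of these strands therefore has no single origin, and the sources do not say how such reads were assigned. The 3p strands tell some copies apart, and those of the low-count loci were these.
let-7a-1-3p (identical in Mirlet7c-2): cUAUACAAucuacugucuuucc
let-7a-2-3p: cUGUACAGccuccuagcuuuc
let-7c-1-3p: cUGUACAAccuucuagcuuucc
The counts are per hairpin and do not separate the arms, so values of Mirlet7a-1, Mirlet7a-2 and Mirlet7c-1 are uncertain as to copy and amount. In contrast, the 5p strands of Mirlet7d, Mirlet7g, Mirlet7i and Mir98 each lie in a single hairpin.

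The positions are on mm10, with GENCODE M21 annotation. Mirlet7a-1 (chr13:48538179-48538272, minus strand) and Mirlet7d (chr13:48536012-48536114, minus strand) lie in exons of the long noncoding RNA 6720427I07Rik, with Mirlet7f-1 between them. Mirlet7c-1 (chr16:77599657-77599750, plus strand) lies in an intron of Mir99ahg, the host of Mir99a, and on its other strand is an intron of Gm11146. Mirlet7a-2 (chr9:41536716-41536811, plus strand) lies in introns of the noncoding genes 3110039I08Rik and Gm49317. Mirlet7g (chr9:106178840-106178927, plus strand) lies in an intron of Wdr82, which encodes a subunit of histone methyltransferase complexes. Mirlet7i (chr10:122985640-122985724, minus strand) overlaps an exon of the pseudogene D630033A02Rik. Mir98 (chrX:151913214-151913321, plus strand) lies, with Mirlet7f-2, in an intron of Huwe1, a ubiquitin ligase gene.

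The table totals ran from 2539388 to 5255906 counts per library, and the miRNA loci held 1434214 to 3122907 of them. All 12 hepatocyte markers listed had rows. By the cell type lists 1 library stood apart, chow 1 month replicate 2. It had 44.72 CPM of the pancreas miRNA Mir375, against 2.208 to 5.37 CPM in the other 11. It also had the highest sums of epithelial (4441 CPM) and mesenchymal (38430 CPM) miRNAs. By the chi-square per degree of freedom between replicates, others stood apart at least as far. HFCF 3 months replicate 1 had 250 and 282 against its replicates, which had 32.3 between them. HFCF 1 month replicates 1 and 3 had 516. Chow 1 month replicate 2 had 220 and 168. In whole liver, fewer cells of a type and less RNA per cell cannot be told apart.

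By the counts as deposited, a single locus dominated the family. The assignment of reads shared between hairpins is not stated, so the rows of let-7a and let-7c may not hold all reads of those strands. Levels are TMM-scaled CPM, the count of a locus relative to all miRNA counts of its library, where TMM is a scaling that assumes most loci do not change. Per 100 bases of hairpin and as means over the 12 libraries, Mirlet7g stood at 68600 CPM, Mirlet7i at 9400, Mirlet7d at 5360, Mir98 at 659, Mirlet7a-1 at 306, Mirlet7c-1 at 111 and Mirlet7a-2 at 41.2. The ranges of neighbours in that order did not overlap over the 12 libraries. The nearest were Mirlet7c-1, lowest at 84.5 CPM per 100 bases, and Mirlet7a-2, highest at 64.5. By level, without the division by length, Mirlet7g ranked 4 among the 227 miRNA loci that passed the filter on low counts, Mirlet7i 19, Mirlet7d 22, Mir98 54, Mirlet7a-1 74, Mirlet7c-1 102 and Mirlet7a-2 134. All 7 loci passed that filter. Of the 5 other let-7 rows, Mirlet7f-2 (7500 CPM per 100 bases) and Mirlet7b (6400) lay between Mirlet7i and Mirlet7d. Without the division by length, Mirlet7b (5437 CPM, rank 23) lay just below Mirlet7d (5525 CPM), so its place depends on that division. The smallest raw counts behind any member were the 60 to 166 counts per library of Mirlet7a-2, while Mirlet7g had 99965 to 196500. The 7 loci summed made up 6.69% to 8.46% of miRNA counts.

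**Figure D1:**
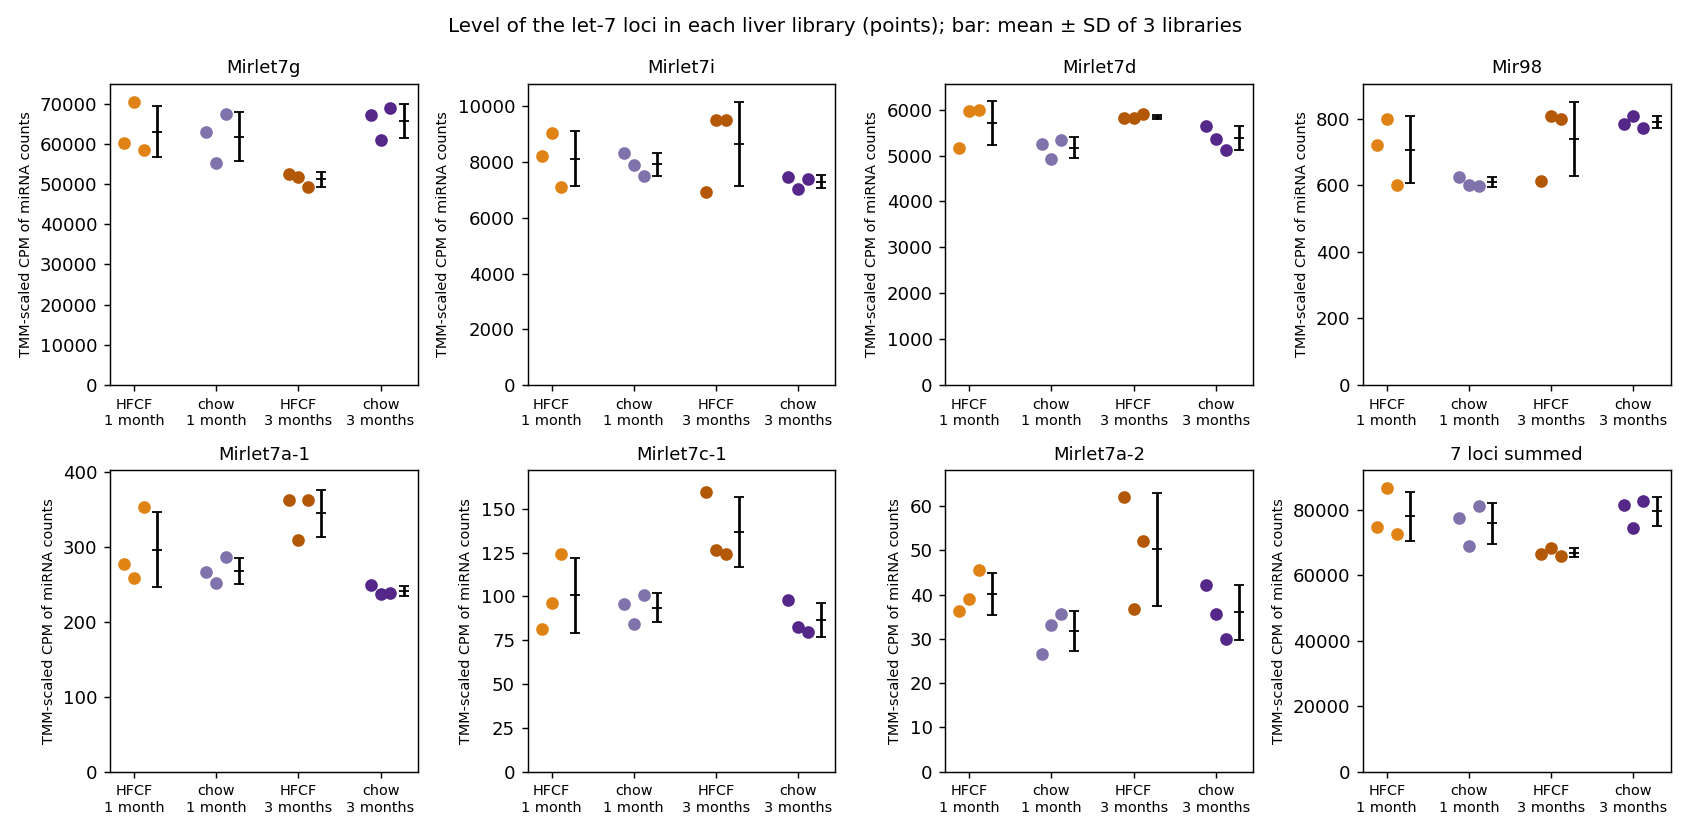
Level of each of the 7 let-7 loci, and of their sum, in every library, in TMM-scaled CPM of miRNA counts (vertical axis from 0), for HFCF and chow after 1 and 3 months. Points are libraries and bars are mean ± SD of 3 libraries. Mirlet7a-1 and Mirlet7c-1 sit higher, and Mirlet7g lower, in all HFCF libraries than in all chow libraries at 3 months, whereas at 1 month these groups overlap.

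After 1 month on the diet no let-7 locus passed the test. All 7 fold changes were on the positive side and small, where 52.4% of the 227 loci tested were positive. With library totals in place of TMM, Mirlet7g and Mirlet7i were at -0.06 each. Mirlet7g had 60310, 70340 and 58480 CPM in the HFCF livers, against 62820, 55190 and 67380 CPM in the chow livers. Mirlet7a-1 had 277, 259.2 and 353.8 CPM in HFCF livers and 266.8, 252.3 and 286.6 CPM in chow livers. In both, the groups overlapped. Mirlet7a-2 was the single member whose groups did not overlap, with 36.22, 39.02 and 45.45 CPM in HFCF livers, against 26.65, 33.13 and 35.56 CPM in chow livers. Its log2 fold change was 0.35 ± 0.23 (SE), and its edgeR adjusted p 0.474. Among all loci tested 10.6% had HFCF libraries wholly above the chow libraries, and 8.37% wholly below, so 1 of 7 above and 0 of 7 below are near the background.

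The members' log2 fold changes at 1 month lay between 0.03 for Mirlet7g and 0.35 for Mirlet7a-2, with a median of 0.14, beside 0.02 over the 227 loci. In edgeR's quasi-likelihood test with Benjamini-Hochberg adjustment over those loci, 0 of 7 passed an adjusted p of 0.05, as 7 loci (3.08%) did in all, each of them lower in HFCF. At an unadjusted p under 0.05 the count of members was also 0, and DESeq2 and limma-voom also called 0. For Mirlet7g, the locus with the most counts, the 95% interval ran from -0.20 to 0.25 on the log2 scale, or 0.873-fold to 1.19-fold. For Mirlet7c-1 it ran from 0.822-fold to 1.4-fold. Leaving out the chow library that stood apart left the count at 0.

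After 3 months on the diet the members differed from chow in different directions. Mirlet7a-1 and Mirlet7c-1 were higher in HFCF than in chow livers, and the other 4 did not pass the test. Mirlet7g, the dominant locus, was lower on the TMM scale. The background in this comparison was high: 22.9% of the 227 loci passed, 8.81% as higher and 14.1% as lower. The 3 of 7 members that passed, 2 as higher and 1 as lower, are to be read against that background.

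Mirlet7a-1, one of the hairpins of let-7a, had 363.4, 309.3 and 362.7 CPM in HFCF livers, against 249.6, 237.3 and 238.9 CPM in chow livers. Every HFCF library was above every chow library. The means were 345 ± 31 CPM in HFCF livers and 242 ± 6.72 CPM in chow livers (SD, n = 3 each), a 1.43-fold difference (log2 0.51 ± 0.14 SE, edgeR adjusted p 0.0174). The raw counts were 874, 953 and 1155 in HFCF and 372, 539 and 541 in chow.

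Mirlet7c-1, a hairpin of let-7c, had 159.6, 126.3 and 124.4 CPM in HFCF livers, against 97.97, 82.31 and 79.48 CPM in chow livers. The groups did not overlap here either, and replicate 1 was the highest in both diets. The means were 137 ± 19.8 CPM in HFCF livers and 86.6 ± 9.96 CPM in chow livers (SD, n = 3 each), a 1.58-fold difference (log2 0.66 ± 0.18 SE, edgeR adjusted p 0.0184).

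Mirlet7g, the source of let-7g, had 52410, 51830 and 49140 CPM in HFCF livers, against 67110, 60860 and 68950 CPM in chow livers. Every HFCF library was below every chow library. The means were 51100 ± 1740 CPM in HFCF livers and 65600 ± 4240 CPM in chow livers (SD, n = 3 each), a fold of 0.779 (log2 -0.36 ± 0.10 SE, edgeR adjusted p 0.0235). This difference depends on the scaling. As a plain share of miRNA counts, Mirlet7g was 5.89% ± 0.126 in HFCF livers and 6.36% ± 0.545 in chow livers (SD, n = 3 each), and these groups overlapped, 5.81% to 6.04% against 5.93% to 6.97%. The TMM factors were 1.11 to 1.184 in HFCF livers and 0.8966 to 1.039 in chow livers at 3 months.

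Mirlet7d, Mirlet7i, Mirlet7a-2 and Mir98 did not pass at 3 months. Mirlet7d had 5823, 5811 and 5898 CPM in HFCF livers, against 5640, 5365 and 5119 CPM in chow livers; these did not overlap, yet the fold was 1.09 (edgeR adjusted p 0.364). With Mirlet7a-1 and Mirlet7c-1, that makes 3 members with HFCF wholly above chow, where 17.2% of loci were, and Mirlet7g is the 1 member wholly below, where 22% were. Mirlet7i had 6924, 9509 and 9502 CPM in HFCF livers, against 7449, 7030 and 7394 CPM in chow livers. HFCF replicate 1 lay under all the chow libraries and the other two above them (log2 0.25 ± 0.13 SE, adjusted p 0.192 in edgeR). In Mir98 the same HFCF library was again under all the others, with 612.4, 807.9 and 798 CPM in HFCF livers and 785.1, 809.5 and 773.1 CPM in chow livers (log2 -0.09 ± 0.13 SE, adjusted p 0.641 in edgeR). Mirlet7a-2 had 61.94, 36.68 and 52.13 CPM in HFCF livers and 42.27, 35.65 and 30.02 CPM in chow livers (log2 0.49 ± 0.22 SE, adjusted p 0.142 in edgeR), and the groups overlapped. Taking all 7 members, the median log2 fold change came to 0.25, beside 0.02 over all loci tested.

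**Figure D2:**
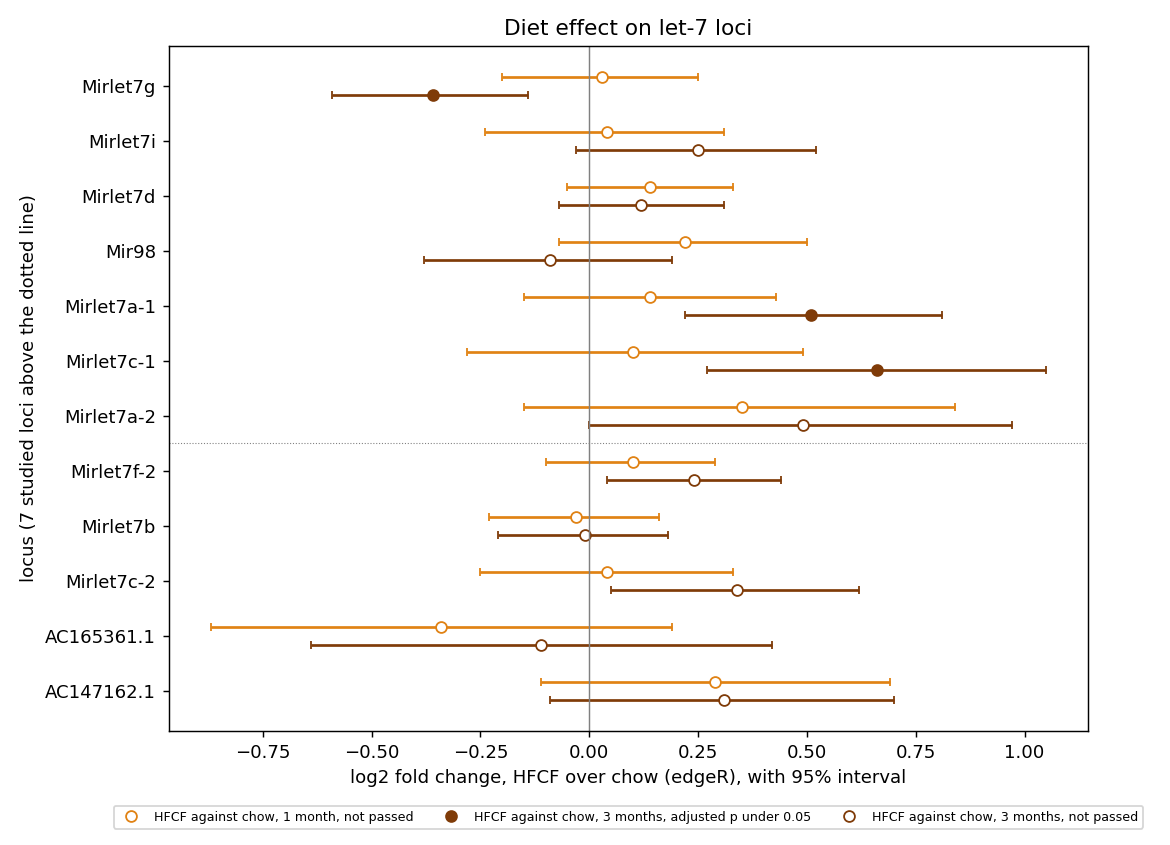
Log2 fold change, HFCF over chow, of the 7 let-7 loci (above the dotted line) and the 5 other let-7 rows (below it) at 1 month and 3 months, with 95% intervals from edgeR. Filled points had an adjusted p under 0.05: Mirlet7g at -0.36, Mirlet7a-1 at 0.51 and Mirlet7c-1 at 0.66, all at 3 months.

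Of the 5 other let-7 rows, 0 passed at 3 months. Mirlet7c-2, which shares its 5p strand with Mirlet7c-1 and its 3p strand with Mirlet7a-1, had 693 ± 74.3 CPM in HFCF livers and 549 ± 31.9 CPM in chow livers (SD, n = 3 each; log2 0.34 ± 0.13 SE, edgeR adjusted p 0.0879). Mirlet7f-2 had 6810 ± 165 CPM in HFCF livers and 5760 ± 434 CPM in chow livers (SD, n = 3 each; log2 0.24 ± 0.09 SE, edgeR adjusted p 0.0742). In both, the HFCF libraries lay wholly above the chow libraries. Mirlet7b had 5580 ± 165 CPM in HFCF livers and 5630 ± 263 CPM in chow livers (SD, n = 3 each; log2 -0.01 ± 0.09 SE). When the rows that share a 5p strand were summed before the fit, let-7a gave a log2 fold change of 0.50 (edgeR adjusted p 0.0214) and let-7c one of 0.38 (edgeR adjusted p 0.0785), so the call for let-7c was lost.

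Split by whether the 5p strand lies in more than 1 hairpin, a grouping chosen after the values were seen, the 10 rows on the strand of a let-7 hairpin had ranges at 3 months that barely met. The 5 rows with a shared 5p strand (Mirlet7a-1, Mirlet7a-2, Mirlet7c-1, Mirlet7c-2 and Mirlet7f-2) had log2 fold changes of 0.24 to 0.66, with a median of 0.49. The 5 rows with an unshared one (Mirlet7b, Mirlet7d, Mirlet7g, Mirlet7i and Mir98) had -0.36 to 0.25, with a median of -0.01. At 1 month the range was 0.04 to 0.35 in rows with a shared strand and -0.03 to 0.22 in rows without. AC147162.1 and AC165361.1, on the opposite strand of a hairpin, stood at 0.31 and -0.11 at 3 months. The rows with a shared strand are the ones that are uncertain as to copy and amount, and the part that read assignment plays was not tested.

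Ratios within a library do not depend on scaling, and they place the members against the dominant locus. At 3 months the counts of Mirlet7c-1 relative to Mirlet7g, on the log2 scale, were -8.36, -8.68 and -8.63 in HFCF livers, against -9.42, -9.53 and -9.76 in chow livers. The mean ratio was thus higher by 1.01 log2 units in HFCF livers. Mirlet7a-1 was higher relative to Mirlet7g by 0.87, Mirlet7a-2 by 0.82, Mirlet7i by 0.59, Mirlet7d by 0.48 and Mir98 by 0.25 log2 units. In 5 of these 6 loci the HFCF libraries lay wholly above the chow libraries, and in Mir98 they overlapped. Of the 226 other miRNA loci tested, 42% had a ratio to Mirlet7g that lay wholly above chow, so an excess over Mirlet7g was common. At 1 month 0 of the 6 lay wholly above chow, beside 5.75% of loci, and 0 wholly below, beside 8.85%. The differences at 1 month were 0.00 to 0.32 log2 units.

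**Figure D3:**
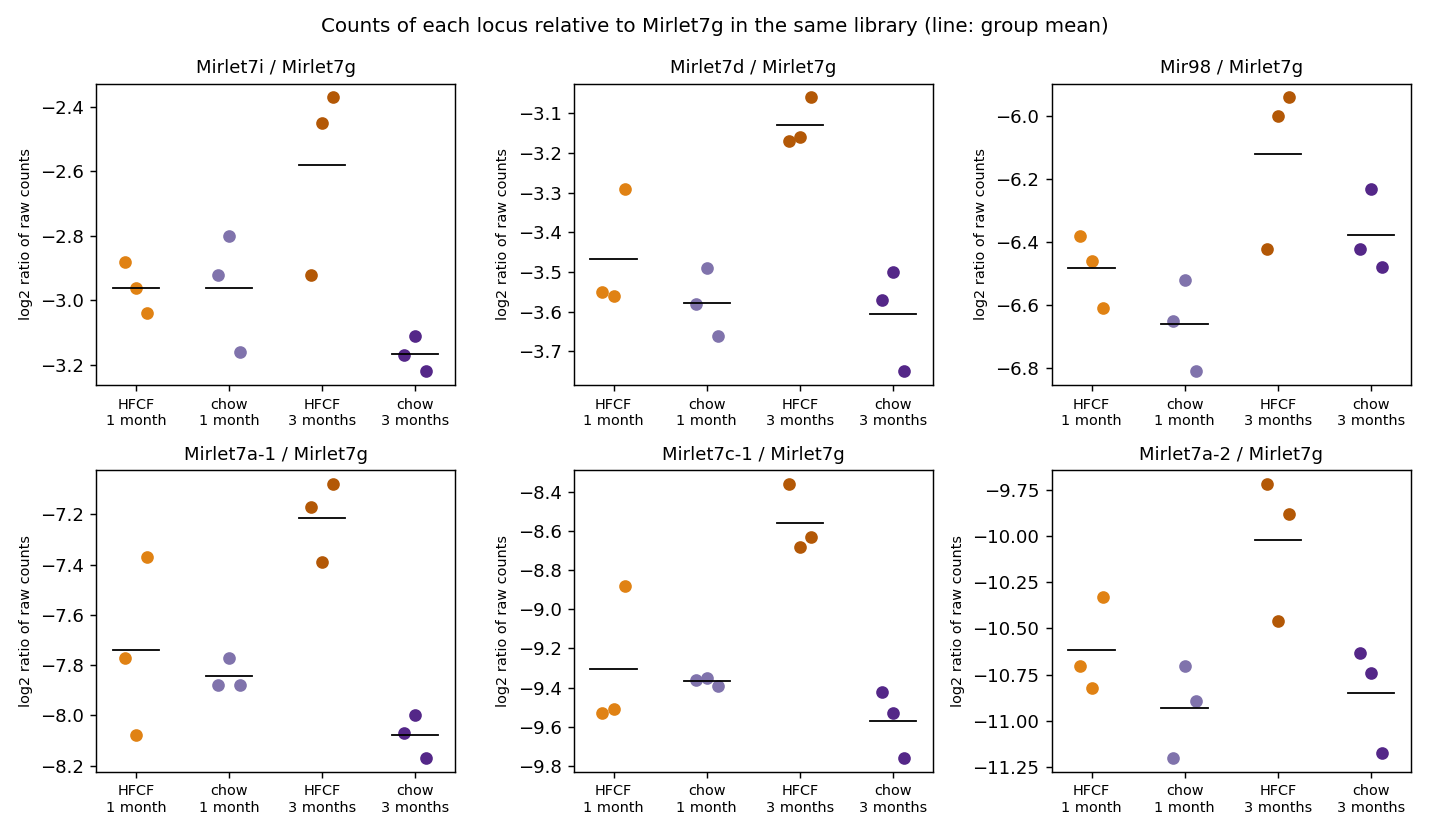
Log2 ratio of the raw counts of 6 let-7 loci to those of Mirlet7g in the same library, with a line at each group's mean. At 3 months the HFCF points lie above all chow points for every locus drawn except Mir98. The vertical axes differ between panels and do not start at 0, as these are log ratios.

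The makeup of the family differed accordingly at 3 months. Mirlet7g gave 76.4% ± 2.28 of the 7-locus sum in HFCF livers and 82.6% ± 0.861 in chow livers (SD, n = 3 each). Mirlet7i gave 12.9% ± 2.17 in HFCF livers and 9.18% ± 0.248 in chow livers. Mirlet7d gave 8.74% ± 0.233 in HFCF livers and 6.78% ± 0.522 in chow livers. These 3 shares did not overlap between the diets, nor did those of Mirlet7a-1, Mirlet7a-2 and Mirlet7c-1, whereas that of Mir98 did. As shares of a single sum they are not independent of each other. Mirlet7g made up most of that sum, so the shares are close to the ratios to Mirlet7g. In those ratios 42% of loci lay wholly above chow. No such figure over all loci was computed for the shares. By these counts Mirlet7a-1 and Mirlet7c-1 remained minor, at 0.517% ± 0.0561 and 0.205% ± 0.0312 in HFCF livers. In chow livers they were at 0.305% ± 0.0149 and 0.109% ± 0.0121. At 1 month Mirlet7g gave 80.8% ± 0.421 in HFCF livers and 81.4% ± 1.47 in chow livers, which overlapped.

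The summed level of the 7 loci gave no single answer at 3 months. On the TMM scale it was 66350, 68430 and 65880 CPM in HFCF livers, against 81380, 74420 and 82580 CPM in chow livers, which did not overlap (log2 ratio -0.25). As a share of miRNA counts it was 7.71% ± 0.313 in HFCF livers and 7.7% ± 0.656 in chow livers (SD, n = 3 each), a log2 ratio of 0.00. At 1 month the sum was 78000 ± 7480 CPM in HFCF livers and 75900 ± 6270 CPM in chow livers.

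The let-7 loci were next set against their neighbours in the genome. Mirlet7c-1 relative to Mir99a was higher at 3 months by 0.66 log2 units, with -6.45, -6.9 and -7 in HFCF livers, against -7.14, -7.46 and -7.75 in chow livers. Mir99a itself had 15000 ± 978 CPM in HFCF livers and 15100 ± 1760 CPM in chow livers (SD, n = 3 each; log2 -0.01 ± 0.10 SE, edgeR adjusted p 0.935). Mirlet7a-1 relative to Mirlet7d was higher by 0.39 log2 units, with -4, -4.23 and -4.02 in HFCF livers, against -4.5, -4.5 and -4.42 in chow livers. In both ratios the diets did not overlap. They did overlap in other ratios to neighbours. Mirlet7c-1 relative to Mir125b-2 was higher by 0.45 log2 units. AC147162.1 lies on the strand opposite to Mirlet7a-1 and Mirlet7d. Relative to it, Mirlet7a-1 was higher by 0.22 log2 units, and the difference for Mirlet7d was -0.16. No share over all loci was computed for ratios to a neighbour.

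Mir98 relative to Mirlet7f-2 stood lower at 3 months by -0.35 log2 units, with -3.51, -3.07 and -3.06 in HFCF livers, against -2.97, -2.71 and -2.91 in chow livers, again without overlap. Mirlet7a-2 relative to Mir100 was higher by 0.49 log2 units at 1 month, without overlap, and by 0.65 at 3 months, with overlap. Relative to Mir125b-1 the difference was 0.53 at 1 month, without overlap, and 0.17 at 3 months, with overlap. Mir100 and Mir125b-1 did not pass at either time, with an adjusted p in edgeR of 0.628 and 0.364 for Mir100 and of 0.474 and 0.0994 for Mir125b-1 at 1 and 3 months. The host transcripts were scarce in this small RNA table, with 15 to 65 counts per library for Huwe1 and 2 to 17 for Wdr82. At 3 months the log2 fold change was 0.21 ± 0.30 (SE) for Huwe1 and -0.61 ± 0.53 for Wdr82, with edgeR adjusted p of 0.814 and 0.645 over all genes.

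Averaged over both times, Mirlet7a-1 was higher with HFCF (log2 0.33 ± 0.10 SE, edgeR adjusted p 0.0259), and so was Mirlet7c-1, close to the threshold (0.38 ± 0.13, adjusted p 0.0482). That is 2 of 7 members called, where 21.1% of the 227 loci were. Both were higher, as 8.81% of loci were, and 0 were lower, as 12.3% were. Mirlet7g was at -0.17 ± 0.07 (adjusted p 0.122 in edgeR). Without the chow library that stood apart at 1 month, 0 members passed in this comparison, and the same held without HFCF replicate 3 at 1 month or at 3 months, chow replicate 1 at 1 month, or chow replicate 2 or 3 at 3 months.

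Whether the diet effect differed between the times was tested directly. 0 of 7 members passed, where 0.881% of loci did. The change in the log2 fold change was 0.56 ± 0.25 (SE) for Mirlet7c-1, -0.39 ± 0.15 for Mirlet7g and 0.37 ± 0.19 for Mirlet7a-1, with edgeR adjusted p of 0.249, 0.155 and 0.314. At an unadjusted p under 0.05 there were 2 members, Mirlet7c-1 and Mirlet7g. Calls at 3 months but not at 1 month are thus not shown to be a difference between the times.

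Over time on HFCF, 0 of 7 members passed, where 15.9% of loci did, 8.37% as higher and 7.49% as lower. Mirlet7g was closest, with 51100 ± 1740 CPM after 3 months and 63000 ± 6390 CPM after 1 month (SD, n = 3 each; log2 -0.30 ± 0.10 SE, edgeR adjusted p 0.073), and these libraries did not overlap. Mirlet7c-1 was at 0.44 ± 0.18 (adjusted p 0.107 in edgeR), also without overlap. Such separation was found for 18.5% of loci on the lower side and 14.5% on the higher side. Mirlet7g passed as lower, alone among the 7, without the chow 1 month library that stood apart, and also without chow replicate 3 or HFCF replicate 3 at 1 month, or HFCF replicate 1 at 3 months. Over the same time on chow, 0 of 7 passed, where 0.441% of loci did. Mir98 had the largest difference of the 7, with 789 ± 18.5 CPM after 3 months and 609 ± 14.9 CPM after 1 month (SD, n = 3 each; log2 0.37 ± 0.13 SE, edgeR adjusted p 0.391). On chow, Mir98 was the 1 member wholly higher (9.25% of loci) and Mirlet7a-1 and Mirlet7i the 2 wholly lower (6.17% of loci). The comparisons of diets and of times share libraries, so their values are not independent.

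Across all 12 libraries the members differed in how steady they were. Mirlet7d had an SD of 0.10 on the log2 CPM scale, the rank of 3 from the lowest among 185 loci with a mean of at least 10 CPM. Mirlet7g and Mirlet7i had an SD of 0.17 each, Mir98 of 0.20, Mirlet7a-1 of 0.23, Mirlet7c-1 of 0.32 and Mirlet7a-2 of 0.33, beside a median of 0.28. The pattern most like that of the summed 7 loci, by the root mean square difference of centred log2 CPM, was that of Mir27b (0.095), followed by Mir374b (0.104), Mir192 (0.109), Mir10a (0.117) and Mir28a (0.119), with a median of 0.29 over 178 loci. Because Mirlet7g makes up most of the sum, these are close to its own neighbours, Mir374b (0.101), Mir27b (0.104) and Mir192 (0.115). Mirlet7a-1 was most like Mirlet7c-2 (0.102), with which it shares the 3p strand printed above, and Mirlet7d was most like Mirlet7f-2 (0.075).

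Transcripts that act on let-7, or that let-7 is known to repress, were read from the same table, where messenger RNAs appear only as short fragments. Of 34 listed symbols for making and controlling let-7, 13 genes had a row and 7 could be tested, and 0 passed at either time in the fit over all 2511 genes tested. Of those genes 0.438% passed at 1 month and 2.51% at 3 months. The best covered were Trim25, which binds RNA and promotes the uridylation of pre-let-7 (mean of 30.8 counts per library), the helicase gene Ddx5 (29.6) and the splicing factor gene Mbnl1 (26.1). At 3 months Mbnl1 had 7.56 CPM of all counts in HFCF livers and 4.62 CPM in chow livers (log2 0.75 ± 0.35 SE, edgeR adjusted p 0.307), and was the 1 gene of the list with an unadjusted p under 0.05. Dicer1, the gene of the enzyme that cuts the hairpin, had 7.75 counts on average and log2 fold changes of -0.37 ± 0.47 at 1 month and -0.14 ± 0.52 at 3 months. The list's median log2 fold change was -0.00 at 1 month and 0.11 at 3 months, beside -0.03 and 0.04 over all genes.

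Of 47 listed let-7 targets, 7 had a row and 6 could be tested, and again 0 passed at either time. Insr, for the insulin receptor, had 4.85 CPM of all counts in HFCF livers and 4.78 CPM in chow livers at 3 months (log2 0.01 ± 0.34 SE, edgeR adjusted p 0.992). Pgrmc1, a progesterone receptor membrane component, was the best covered with 67.5 counts on average, at log2 0.32 ± 0.29 (edgeR adjusted p 0.649). Dusp6, a phosphatase gene of the ERK pathway, stood at 4.58 CPM in HFCF livers and 2.65 CPM in chow livers at 3 months (log2 0.82 ± 0.37 SE) and at 0.98 ± 0.44 at 1 month. It was the 1 target with an unadjusted p under 0.05 at each time, and its edgeR adjusted p was 0.432 at 1 month and 0.288 at 3 months. The targets' median was -0.24 at 1 month, with 2 of 6 positive, and 0.35 at 3 months, with 5 of 6 positive. The tested targets had means of 7.75 to 67.5 counts per library, and a p that misses the threshold does not show that they did not differ.

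Among the cell type lists, only leukocyte and hepatocyte miRNAs passed at 3 months. Over all loci tested 8.81% passed as higher and 14.1% as lower. Of the leukocyte list 7 of 8 members had a row. Among its 6 tested miRNAs, Mir223, Mir155 and Mir342 were higher in HFCF livers and Mir511 was lower. Its summed level was 1151 to 1935 CPM in HFCF livers, against 973.6 to 1239 CPM in chow livers, and these overlapped. In the hepatocyte list, 1 of 6 tested miRNAs was higher in HFCF livers and 1 was lower. The sums overlapped, with 258300 to 317300 CPM in HFCF livers and 275100 to 314500 CPM in chow livers. No miRNA of the mesenchymal, endothelial, epithelial, erythroid and pancreas lists passed at 3 months, and the neuronal list had no row. The part of cell makeup in the let-7 differences was not tested.

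How the 3 calls at 3 months held up differed. Mirlet7a-1 and Mirlet7c-1 stayed higher in HFCF livers in all 23 other ways of processing and passed in 20 each. Mirlet7g stayed lower in all 23 and passed in 16. The 23 ways share most of their data, and those that leave out a 1 month library keep all libraries compared at 3 months. When library totals replaced TMM, the median log2 fold change of all loci moved to 0.27, against 0.02 with TMM, and Mirlet7g was at -0.11 (edgeR adjusted p 0.328), still below that median. Mirlet7a-1, Mirlet7c-1, Mirlet7a-2, Mirlet7d and Mirlet7i then all passed as higher, at 0.76, 0.90, 0.73, 0.37 and 0.50. Over all loci that scaling gave 59 higher and 18 lower calls, where TMM gave 20 and 32. In the fit over all genes of the table Mirlet7c-1 alone passed (0.90, edgeR adjusted p 0.0491), with Mirlet7a-1 at 0.75 (0.0822) and Mirlet7g at -0.10 (0.896).

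Single libraries also bore on the calls. Without chow 3 months replicate 3, 0 members passed at 3 months, and without HFCF 3 months replicate 3 only Mirlet7c-1 did. Mirlet7a-1 was lost without either of these, at an adjusted p of 0.0753 and 0.0559 in edgeR, and Mirlet7c-1 without chow replicate 2 or 3, at 0.0646 and 0.0926. Mirlet7g was lost without HFCF replicate 2 or 3, or chow replicate 1 or 3, at 0.0628, 0.0881, 0.0914 and 0.0717. Its log2 fold change then lay between -0.37 and -0.29. A call was also gained: without HFCF replicate 1 at 3 months, Mirlet7i passed as higher (log2 0.40, edgeR adjusted p 0.0156).

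**Figure D4:**
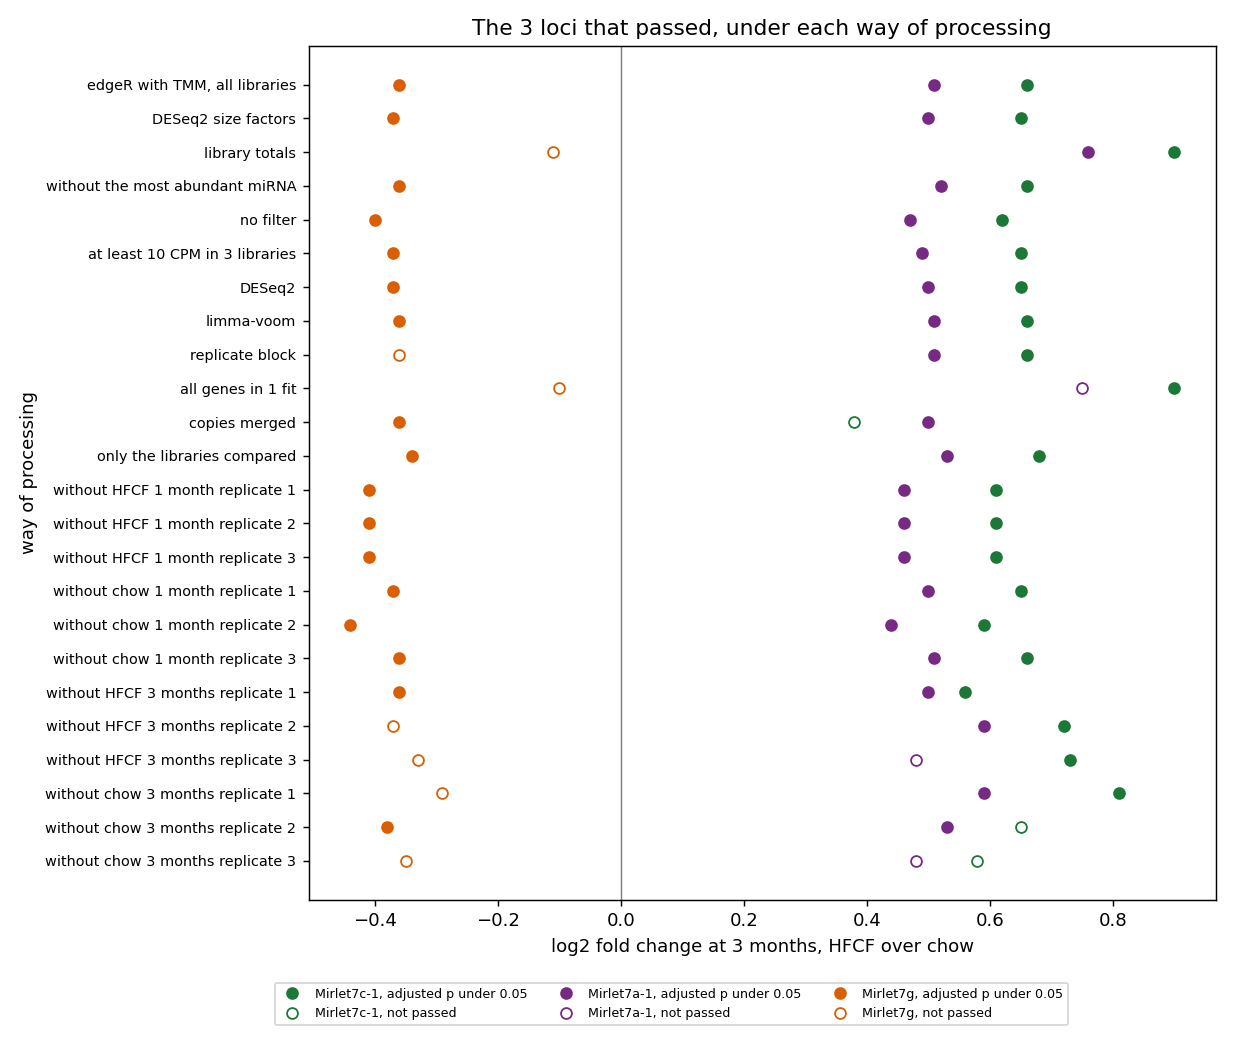
Log2 fold change at 3 months (HFCF over chow, horizontal axis) of Mirlet7c-1, Mirlet7a-1 and Mirlet7g under edgeR with TMM (top) and 23 other ways of processing. Filled points had an adjusted p under 0.05. No point crosses 0, and Mirlet7g comes nearest to it, at -0.11 with library totals and -0.10 with all genes in 1 fit.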

How the data were processed

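Small RNA was sequenced from 12 mouse livers. The labels' protocols name Trizol, a column kit and the NEBNext small RNA kit, whereas the design text has a stranded kit with ribosomal RNA removal, and this is not settled. The authors deposited whole-number read counts per gene, per the file headers, on mm10, per the submitters' processing notes. Neither the aligner and counter nor strand use nor the treatment of multiply mapping reads is given in these sources. 12 columns of per-sample values were not used, and 1 repeated row was left out. IDs were named from GENCODE M21 (3617 matched, 100 did not). Groups follow the sample labels.

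Counts of 259 miRNA loci were filtered (filterByExpr, 227 kept), TMM-scaled and tested with edgeR 4.0.16 (R 4.3.3): quasi-likelihood, robust, all 12 libraries, 1 mean per group. p-values were Benjamini-Hochberg adjusted over the 227, with 0.05 as the threshold. SE is the absolute log2 fold change over the square root of F. Intervals are 95%. Transcripts were fitted over all genes. DESeq2 1.42.0, limma 3.58.1, other scalings and filters, a replicate block, merged copies and leaving out libraries were alternatives. Scripts were tested on simulated data. Named besides the members were their genome neighbours, host genes, the 5 loci most like their sum, and the lists. Members and lists were chosen with earlier results of these data known.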

Additional observations from a re-analysis of the deposited data

How the results depend on the processing

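Directions and calls were recomputed under 23 alternatives (22 for the averaged and the between-time comparisons, for which a fit to only the libraries compared is the same fit). The count of members called at 1 month, between the times, and over time on chow was 0 under each of them. At 3 months the count was 5 with library totals, 1 with all genes in 1 fit, and 0 to 4 on leaving out each library. Averaged over both times it was 0 to 3 over the 22 alternatives. It was 1 with DESeq2 size factors, no filter, at least 10 CPM in 3 libraries, limma-voom or the replicate block, and 0 to 2 without each library. Over time on HFCF it was 1 with DESeq2 size factors, no filter or DESeq2, 5 with library totals, and 0 to 1 without each library. The summed level at 3 months had a log2 ratio of 0.00 as a share of miRNA counts and 0.07 as a share of the table total. With the 5 other let-7 rows in the sum, the difference in share at 3 months was 0.165 percentage points for Mirlet7a-1, 1.4 for Mirlet7d and -7.89 for Mirlet7g.

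Replicate numbers showed no clear pairing of the libraries. The deviations of the 18 same-numbered pairs had correlations from -0.221 to 0.391, and 5 were above 0.1. Their median was 0.00837, against -0.00398 for pairs with different numbers. With 3 libraries per group these correlations cannot exclude a pairing. With the replicate block, 2 members passed at 3 months (Mirlet7g at -0.36, adjusted p 0.0514 in edgeR).

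The sign turned, with no call on either side, in these cases. With library totals Mirlet7g and Mirlet7i at 1 month were at -0.06 each, Mir98 at 3 months at 0.16, Mirlet7d and Mir98 in the difference between times at 0.31 and 0.04, and Mirlet7g over time on HFCF at 0.03. With all genes in 1 fit Mir98 at 3 months was at 0.17, Mirlet7g in the average at 0.13, and Mirlet7a-1, Mirlet7c-1 and Mirlet7i over time on chow at 0.22, 0.25 and 0.26. Mirlet7d over time on HFCF was at -0.00 with no filter and with copies merged, and Mirlet7a-2 over time on chow at -0.13 with copies merged. Without each library in turn, ranges crossed 0 for Mirlet7c-1 at 1 month (-0.02 to 0.28), Mir98 at 3 months (-0.17 to 0.05), Mirlet7a-2 (-0.03 to 0.33) and Mirlet7d (-0.19 to 0.05) between the times, Mirlet7d (-0.06 to 0.04), Mirlet7i (-0.04 to 0.23) and Mir98 (-0.08 to 0.18) over time on HFCF, and Mirlet7d over time on chow (-0.01 to 0.13).

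The causes were not tested. The lowest counts were those of Mirlet7a-2 and the transcripts.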
